A study of Drosophila melanogaster with 18 samples.

Results

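Line R3, a Drosophila melanogaster embryonic cell culture followed as it became a continuous line, changed its profile between passage 7 and passage 8. The arrays compared were the 3 labelled P8, P16 and P17 against the 3 labelled P5, P6 and P7, which are 6 of the 18 arrays of the series. The grouping was chosen by the measured values themselves: whole profiles were compared, and the P8 array was nearest to P16 rather than to P7, its neighbour in time. The difference between these groups is therefore described without a test. Tests were made only in the second line, R7, whose 9 arrays took no part in the grouping.

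Both lines were grown in Schneider's medium with fetal bovine serum and antibiotics, and total RNA was labelled for Affymetrix 3' expression arrays. The labels state no genotype for either line and no treatment that separates the groups. In R7 the groups were late (P16, P17, P19), intermediate (P7, P8) and early (P2 in 2 replicates, P3), with P4 kept apart because the study's stages overlap there. The study looked for groups of genes with shared time courses during immortalization and for traces of progenitor cells. Successive passages of a culture stand in for replicates, and the labels do not say that any arrays came from separate cultures, so p-values measure only the spread between these samples. All values are intensities on the authors' linear scale, and values under a floor of 32 were set to 32 before log2.

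Cells taken from Drosophila embryos can start as a mixture of types, and a continuous line is what remains after many divisions. The study named adult muscle precursors as a cell type its lines resemble. These are the twist-expressing mesodermal cells of the embryo that stay undifferentiated until metamorphosis. In the mesoderm, homeobox genes such as slou and ap give single muscles their identity, and the mesoderm also gives rise to haemocytes, the blood cells that engulf debris and secrete matrix. In RNA from a whole culture, fewer cells of a type and less RNA per cell cannot be told apart.

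Of the muscle precursor markers, twi, htl, zfh1 and ct had similar levels in both R3 groups. The mesodermal regulator twi averaged 1531 ± 147 in P8, P16 and P17 and 1604 ± 213 in P5, P6 and P7 (SD, n = 3 arrays each). The FGF receptor gene htl averaged 3364 ± 486 and the transcription factor gene zfh1 averaged 2067 ± 37.8 in P8 to P17, against 3040 ± 303 for htl and 1813 ± 142 for zfh1 in P5 to P7. The homeobox gene ct averaged 108 ± 12.4 in P8 to P17 and 105 ± 25.6 in P5 to P7, close to the dim end of the scale. The defining markers Him and vg were weak or absent: Him, an inhibitor of muscle differentiation, averaged 37.3 ± 8.77 in P8 to P17 and 56.8 ± 7.53 in P5 to P7 without overlap, and vg lay under the floor on all 6 arrays. Of 7 listed markers compared 1, ap, was higher and 0 were lower by the criteria given below. Over all genes compared, 0.915% were higher and 0.958% lower, and every R3 count by gene list is to be read beside these shares. Summed over the 8 markers with a probe set, ap included, the level ran from 7612 to 8713 in P8 to P17 and from 6857 to 7771 in P5 to P7.

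Distance between arrays was counted as the number of probe sets at least 2-fold apart, of the 10200 that exceeded the floor on 2 or more of the 18 arrays. The P8 array stood 41 probe sets from P16 and 99 from P17, and P16 stood 47 from P17. It stood 311 from P7, 180 from P6 and 194 from P5. Within the earlier group P5 and P6 were 52 apart and P6 and P7 were 82 apart, but P5 and P7 were 251 apart. The earlier group itself thus changed over its passages by a number not far below the step between P7 and P8. By this count P5 was nearer to P8, at 194, than to P7. In R7, the arrays of the same passages, P8 and P7, were 89 apart, while P16 and P8 were 461 apart.

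**Figure D1:**
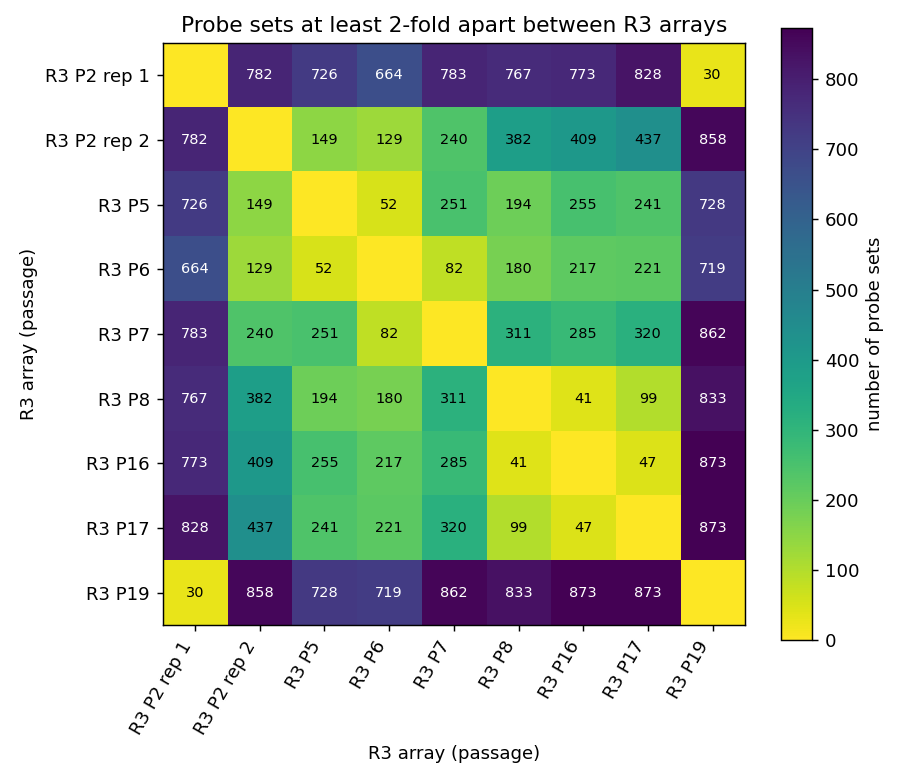
Number of probe sets at least 2-fold apart between each pair of R3 arrays, with arrays in order of passage on both axes and colour giving the number. P8, P16 and P17 form a block with 41 to 99 probe sets between them, and P19 lies 30 from P2 replicate 1 and 833 from P8.

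Some R3 arrays outside the 6 went against their labels. The array labelled P19 differed from P2 replicate 1 at 30 probe sets and from P16 at 873. The 2 arrays labelled as P2 replicates differed from each other at 782 probe sets, and P2 replicate 2 was nearest to P6, at 129. None of these 3 arrays is in the groups compared. In R7 the 2 P2 arrays differed from each other at 2 probe sets. Changes when either is left out are given for the late minus early totals and for the R7 calls of the named genes. The counts of shifted probe sets called in R7 were not remade without them. Array measures overlapped between the groups: medians lay between 24.1 and 25.3 over the 6 arrays, and between 44.7% and 45.5% of non-control probe sets were above the floor. The ratio of 3' to 5' control probe sets for GAPDH was 1.15 to 1.26 in P8 to P17 and 1.20 to 1.35 in P5 to P7, and for actin 1.82 to 1.97 in P8 to P17 and 1.66 to 2.29 in P5 to P7.

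Of the 8851 probe sets that exceeded the floor on 2 or more of the 6 arrays, 79 were at least 2-fold higher in P8, P16 and P17 with no overlap between the groups (0.893%), and 71 were at least 2-fold lower (0.802%). These 150 probe sets are called the shifted set below. Without a minimum fold, 1739 probe sets had no overlap (19.6%), 993 higher and 746 lower. Most of the profile moved little: the means of 8442 tested probe sets, or 95.4%, differed by under 1.5-fold. The other 9918 non-control probe sets did not pass the floor and were not compared.

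The shifted probe sets that were higher carried 65 named genes and those lower carried 68. Another 11 higher and 2 lower probe sets had no single symbol. The median fold was 2.63 among the higher ones and 2.76 among the lower ones, and 16 and 19 of them differed at least 4-fold. Of the higher probe sets 8 lay at the floor on all arrays of P5 to P7, and of the lower ones 8 lay at the floor on all arrays of P8 to P17, so their folds are lower bounds. Folds come from the difference of mean log2 values after the floor, so they can depart from the ratio of the linear means printed. A fold is also a lower bound where some arrays of its lower group are under 32. Near the threshold, alpha-Est7 at 2.01-fold higher and CG7191 at 2.00-fold lower were just inside, and CG17350 at 1.99-fold and CG10559 at 1.96-fold were just outside.

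The largest difference on the lower side was that of a muscle homeobox gene. slou (Entrez gene 42547), a homeobox gene that specifies single muscle founders, had 87.2, 43.1 and 11.7 in P8, P16 and P17, against 461, 597 and 834 in P5, P6 and P7. The groups were at least 12.4-fold apart, and the values parted further with passage in both groups. Lim1 (Entrez gene 31813), which encodes a LIM-homeodomain factor, had 116, 84.7 and 31.6 in P8 to P17 and 354, 805 and 927 in P5 to P7, at least 9.43-fold lower. Its second probe set had a mean of 13.96 in P8 to P17, under the floor, and 69.2 in P5 to P7. The zinc finger gene salm, a target of Dpp signalling, had 32.8, 26.9 and 24.4 in P8 to P17, against 72.4, 88.0 and 93.7 in P5 to P7, at least 2.61-fold lower.

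ap (Entrez gene 35509) went the other way. This LIM-homeodomain gene, which acts in a subset of muscles and in the dorsal wing, had 377, 542 and 546 in P8, P16 and P17, against 54.9, 49.0 and 57.5 in P5, P6 and P7. The groups were 8.97-fold apart, and the second ap probe set gave the same picture, with a mean of 247 in P8 to P17 and 21.8 in P5 to P7. eya, a transcriptional coactivator and phosphatase that works with sine oculis family factors, had 156, 278 and 206 in P8 to P17 and 50.5, 47.9 and 53.7 in P5 to P7, 4.09-fold apart. The folds of twi, zfh1 and htl were 1.04, 1.14 and 1.10.

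Haemocyte genes divided as well. He (Entrez gene 117464), which encodes the surface protein Hemese of circulating haemocytes, had 125, 143 and 164 in P8, P16 and P17, against 2336, 1567 and 918 in P5, P6 and P7. The mean was 10.5-fold lower, and He was lower at each step from P5 to P7. Hml (Entrez gene 39529), the clotting protein Hemolectin of the same cells, had 516, 373 and 446 in P8 to P17, against 71.3, 124 and 148 in P5 to P7, a 4.03-fold higher mean. Glt, which encodes the basement membrane protein Glutactin, was 2.25-fold higher, at 169, 135 and 281 in P8 to P17 and 117, 76.2 and 63.0 in P5 to P7. Idgf3, an imaginal disc growth factor, had 258, 228 and 273 in P8 to P17 and 567, 523 and 471 in P5 to P7, a 2.06-fold lower mean.

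Of 23 haemocyte markers compared, these 2 were the higher ones, Hml and Glt, and these 2 the lower ones, He and Idgf3. The summed level of the 26 markers with a probe set overlapped between the groups, from 18430 to 23000 in P8 to P17 and from 19980 to 24890 in P5 to P7. The lineage regulators lz and gcm were not above the floor. Whether the number of haemocytes in the culture differed was not tested. atilla, a Ly6 surface protein known from lamellocytes and not in that list, had 23.9, 27.7 and 23.3 in P8 to P17, all under the floor, against 349, 144 and 88.4 in P5 to P7, at least 5.14-fold lower. NimC4, a phagocytosis receptor gene also outside the list and singled out after its values were seen, was 3.02-fold higher, at 1730, 1350 and 3349 in P8 to P17 and 721, 763 and 514 in P5 to P7.

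CG31676 and bero, also of the Ly6 family of small proteins tied to the membrane by a lipid anchor, were lower too. No list of this family was made, so these genes do not show how its other members differed. CG31676 (Entrez gene 35351) had 38.0, 35.1 and 43.4 in P8 to P17, just above the floor, against 500, 345 and 224 in P5 to P7, an 8.75-fold lower mean. On P2 replicate 1 and on P19 it reached 6913 and 6765, and on P2 replicate 2 only 463, so the P5 to P7 level was itself far below 2 of the other R3 arrays. The gene bero had 256, 197 and 129 in P8 to P17 and 545, 532 and 337 in P5 to P7, 2.46-fold lower.

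**Figure D2:**
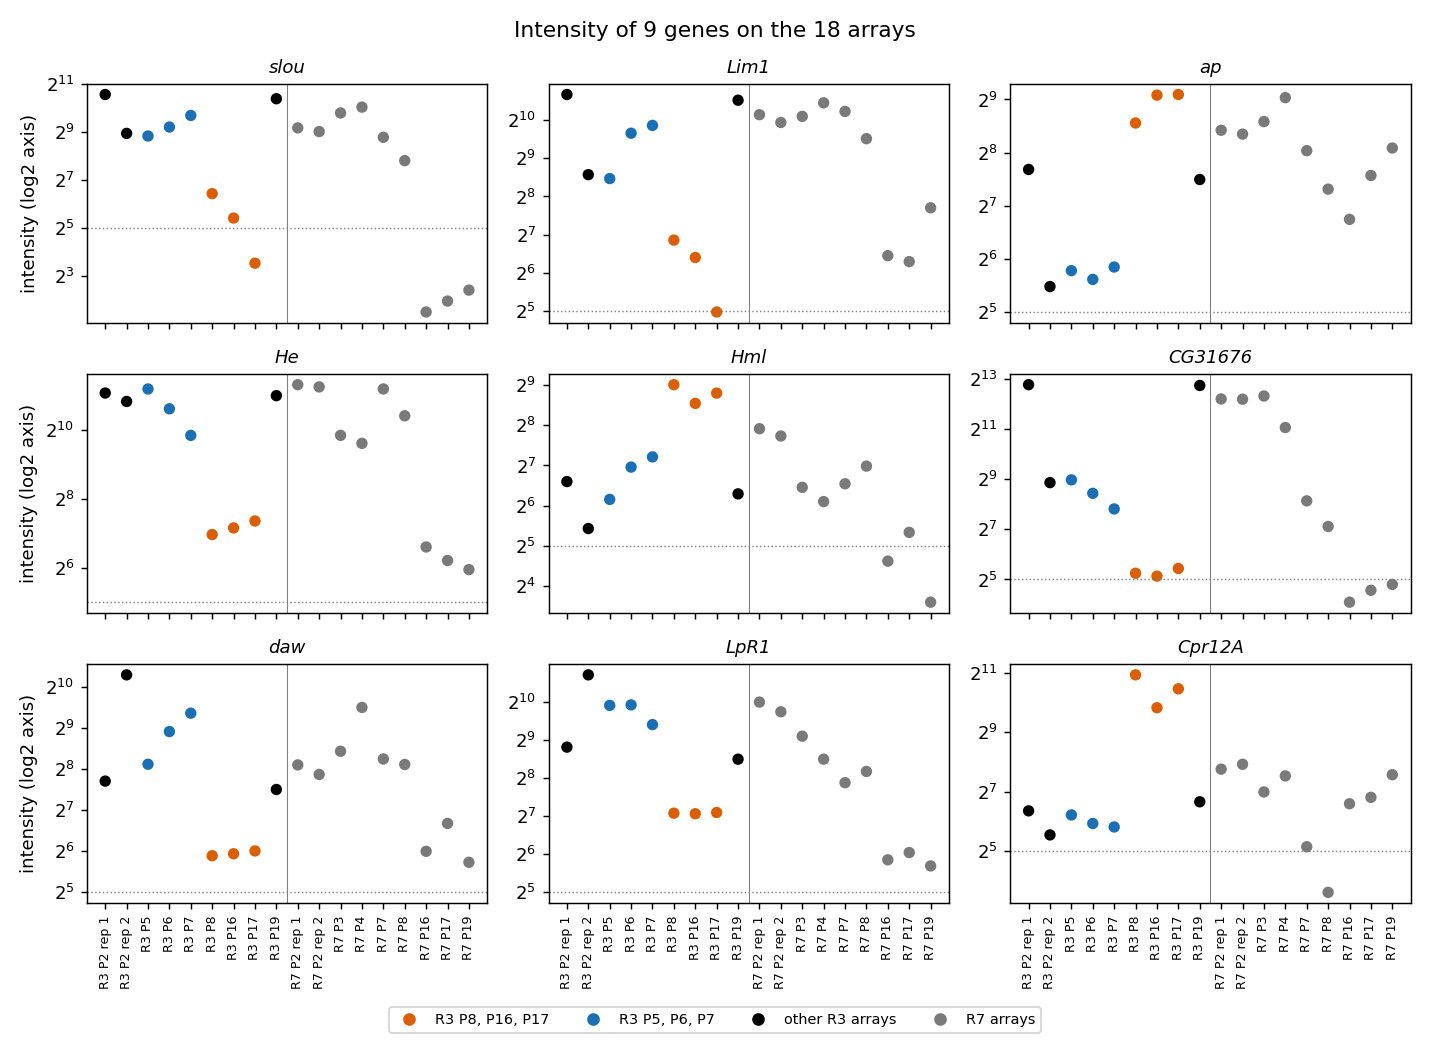
Intensity of 9 genes on a log2 axis for each of the 18 arrays, with R3 and R7 in order of passage, colours for the R3 groups and a dotted line at the floor of 32. slou, Lim1, He, CG31676, daw and LpR1 are lower on P8 than on P7 in R3 and lower on P16 than on P8 in R7, while ap, Hml and Cpr12A are higher on P8 than on P7 in R3.

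Genes of secreted signals stood on both sides. daw (Entrez gene 33474), an activin-like ligand of the TGF-beta family with roles in sugar and lipid balance, had 59.4, 61.4 and 64.4 in P8, P16 and P17, against 279, 485 and 662 in P5, P6 and P7. The mean was 7.25-fold lower, and within P5 to P7 daw was higher at each step. Lst, which encodes Limostatin, a hormone that limits insulin release, had 23.8, 26.1 and 41.8 in P8 to P17 and 98.0, 111 and 158 in P5 to P7, at least 3.42-fold lower. Pvf1, a PDGF- and VEGF-like ligand singled out after its values were seen, was higher, with 120, 112 and 217 in P8 to P17 and 46.7, 44.4 and 44.9 in P5 to P7. Of 14 BMP and TGF-beta pathway genes compared, daw and salm were lower and none was higher by these criteria. Sulf1, an extracellular sulfatase that trims heparan sulfate, had 81.2, 93.2 and 166 in P8 to P17 and 369, 363 and 419 in P5 to P7, 3.55-fold lower, and was the single member called of 12 heparan sulfate genes.

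Of 19 lipid carrier and storage genes compared 2 were lower and 0 higher. LpR1 (Entrez gene 2768687), a receptor for the lipid carrier lipophorin, had 135, 134 and 137 in P8 to P17, against 960, 968 and 676 in P5 to P7, 6.34-fold lower. The lipocalin gene NLaz lay under the floor on all 3 arrays of P8 to P17 (25.0, 21.6 and 25.4) and had 93.8, 77.1 and 102 in P5 to P7, at least 2.83-fold lower. The summed linear level of the 19 genes was higher, from 21660 to 22070 in P8 to P17 and from 20350 to 20820 in P5 to P7. Their median difference was -0.02 (log2).

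CG1208, of the sugar transporter family, was under the floor in P8 to P17 (13.9, 13.8 and 17.3) and had 561, 209 and 97.9 in P5 to P7, at least 7.06-fold lower. The sugar transporter gene nebu had 218, 254 and 236 in P8 to P17 and 1099, 1377 and 1874 in P5 to P7, 6.01-fold lower. Slc45-1, another sugar transporter, was 2.11-fold lower with groups that nearly touched, 215 on P8 and 219 on P5. Sugar transporters had no list either, so how the other members differed is not given. Gbs-70E, a subunit that brings protein phosphatase to glycogen, averaged 219 ± 25.8 in P8 to P17 and 1442 ± 460 in P5 to P7. Pepck1, the first enzyme of gluconeogenesis, averaged 158 ± 34.7 in P8 to P17 and 542 ± 197 in P5 to P7, and was the single gene called of 11 glycolysis and gluconeogenesis genes. The pyrimidine-breakdown enzyme gene pyd3 averaged 105 ± 40.7 in P8 to P17 and 963 ± 404 in P5 to P7, 9.07-fold lower.

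The muscle actin genes Act87E and Act79B were 5.46-fold and 2.20-fold lower, at means of 85.1 ± 28.1 and 210 ± 26.7 in P8 to P17, against 456 ± 103 and 479 ± 169 in P5 to P7. They were the ones called of 11 sarcomere genes. crb, the apical polarity determinant of epithelia, averaged 56.5 ± 8.33 in P8 to P17 and 173 ± 37.8 in P5 to P7, the single call among 15 junction and polarity genes. Esp, a sulfate transporter family gene, lay under the floor in P8 to P17 (mean 19.5 ± 3.19) and averaged 200 ± 57.8 in P5 to P7, at least 6.08-fold lower.

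Of 4 epidermis and cuticle genes compared, TwdlE, a cuticle protein gene, was lower, by 2.05-fold. frm and CG14795 were 9.99-fold and 7.24-fold lower. Rph, which encodes the vesicle protein Rabphilin, averaged 78.6 ± 12.5 in P8 to P17 and 188 ± 31.5 in P5 to P7. CngA, a cyclic nucleotide-gated channel gene, had 938, 604 and 196 in P8, P16 and P17, against 1547, 1437 and 1349 in P5, P6 and P7, so it was lower at each step of the later passages.

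On the higher side a cuticle protein gene came first. Cpr12A (Entrez gene 32309), with a chitin-binding domain, had 1946, 904 and 1405 in P8, P16 and P17, against 74.4, 60.9 and 56.2 in P5, P6 and P7, 21.3-fold higher. Swim, a secreted protein that binds Wingless, had 1262, 2415 and 2043 in P8 to P17 and 174, 243 and 357 in P5 to P7, 7.43-fold higher. Pgant2, an enzyme that starts O-linked glycans, had 532, 958 and 943 in P8 to P17 and 90.03, 142 and 122 in P5 to P7, 6.77-fold higher. The protein kinase D gene, PKD, had 150, 261 and 207 in P8 to P17 and lay under the floor in P5 to P7 (22.2, 15.8 and 11.1), at least 6.27-fold higher.

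Ctns, the lysosomal cystine carrier, was 4.29-fold higher, and cona, a synaptonemal complex gene, averaged 741 ± 90.3 in P8 to P17 and 202 ± 65.2 in P5 to P7. rols, an adaptor of myoblast fusion, averaged 425 ± 120 in P8 to P17 and 184 ± 34.5 in P5 to P7, the single call among 9 fusion genes. Timp, an inhibitor of matrix metalloproteases, averaged 567 ± 202 in P8 to P17 and 265 ± 36.3 in P5 to P7, and was the single call among 18 basement membrane and matrix genes. Its P8 value of 334 was close to the P5 value of 304, and its second probe set was also higher, 491 in P8 to P17 and 229 in P5 to P7.

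Without a well-known role in these cells, CG5002, CG9691, CG34232, CG6836 and yellow-b were at least 3.82-fold to 4.89-fold higher, and CG34323 was at least 3.93-fold higher, because it lay under the floor in P5 to P7. Dtg, named as a target of Dpp, CG13403, the peptidase family gene Ance-4 and nahoda were at least 2.12-fold to 2.64-fold higher. mod(mdg4), a chromatin gene with many alternative ends, was 2.34-fold higher at 1 probe set. None of its 21 other probe sets was called, and where they were compared they differed by at most 0.40 on the log2 scale.

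Counted per gene with 1 probe set each, 64 of 6991 genes were higher (0.915%) and 67 lower (0.958%), with a median difference over all genes of 0.01 (log2). The proliferation lists held no call: 0 of 26 DNA replication genes, 0 of 20 mitosis genes, 0 of 19 ribosome biogenesis genes and 0 of 25 proteasome genes were called in either direction, with medians between -0.04 and 0.08. The same was true of 17 EGFR, Ras and MAPK genes (median 0.14), 12 Notch pathway genes (0.04), 17 Imd and Toll immunity genes (-0.01) and 19 mitochondrial respiration genes (0.09).

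Markers of other cell types held no call in the lists that follow. No neuroblast marker was called of 4 compared, and ase, dpn, wor and pros were not above the floor. Likewise 0 of 7 neuron markers, 0 of 6 glia markers, 0 of 4 fat body markers, 0 of 4 trachea markers, 0 of 6 heart and blood progenitor regulators and 0 of 9 germline genes were called. With 0.915% of all genes higher and 0.958% lower, lists this short are likely to hold no call, so these counts say little. Hand, the marker of heart and blood progenitors, and the germline genes vas and osk were not above the floor. The glia markers summed to 5579 to 6448 in P8 to P17 and to 4912 to 5375 in P5 to P7, without overlap. Their median difference was 0.08 (log2).

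Of all 39 lists, 10 had a summed level that was higher in P8 to P17 without overlap and 3 had a lower one. Among single probe sets, 993 of 8851 were higher and 746 lower without overlap, 19.6% in either direction. Sums are on the linear scale, so bright genes weigh most in them. The 18 basement membrane and matrix genes summed to 47220 to 48910 in P8 to P17 and to 38450 to 41880 in P5 to P7, with a median difference of 0.29 (log2). The 11 Hedgehog pathway genes above the floor, with the 2 dark ones, summed to 5185 to 5472 in P8 to P17 and to 6206 to 6227 in P5 to P7. The epithelial junction, myoblast fusion, integrin, JAK/STAT, EGFR, mitochondrial respiration, apoptosis, lipid and glia lists were the other higher sums. The sarcomere and ecdysone lists were the other lower ones. Median differences ran from -0.03 for apoptosis genes to 0.28 (log2) for fusion genes in these other higher lists. They were -0.005 for Hedgehog, -0.051 for sarcomere and -0.085 for ecdysone genes.

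How much of the change was complete at P8 was measured as the distance of P8 from the mean of P5 to P7, as a share of the distance of the P16 and P17 mean, on the log2 scale. The median share was 100% for the lower probe sets and 78.5% for the higher ones. At least 75% was reached at P8 by 61 of the 71 lower and 46 of the 79 higher probe sets, and less than 50% by 1 lower and 11 higher ones. P8 is among the arrays by which these probe sets were picked, which favours a high share, so the shares are a description. For the 8 lower probe sets at the floor on all arrays of P8 to P17, the floor itself sets the share at 100%. LpR1 had the same level on P8 as on P16 and P17, and CG1208, Esp, atilla and NLaz were at the floor on all 3. Timp (25.1%), CngA (30%), Ance-4 (30.9%), nahoda (33.1%) and yellow-b (35.0%) reached smaller shares at P8.

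Set directly against P7, the P8 array was at least 2-fold higher at 51 of the 79 higher probe sets and at least 2-fold lower at 59 of the 71 lower ones. From P5 to P7, by contrast, 6 of the 79 higher probe sets differed at least 2-fold upward and 6 downward, and 12 of the 71 lower ones upward and 7 downward. These counts follow from how the probe sets were picked and are given as a description.

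R3 arrays outside the groups lay mostly on the P5 to P7 side, many of them beyond those arrays. P2 replicate 2 lay on the P8 to P17 side of the midpoint between the groups for 4 of the 79 higher and 3 of the 71 lower probe sets. For P2 replicate 1 the numbers were 28 and 13, and for P19 they were 22 and 12. Beyond the P5 to P7 arrays, away from P8 to P17, P2 replicate 2 lay for 22 higher and 36 lower probe sets. P2 replicate 1 did so for 22 and 35, and P19 for 25 and 34. Relative to the mean of the 6 arrays, the lower set had a median of 1.14 (log2) on P2 replicate 1, 1.27 on P2 replicate 2 and 1.12 on P19, above all 3 arrays of P5 to P7 (0.71 to 0.93). slou, for example, had 1527 and 497 on the P2 arrays and 1351 on P19. A P19 array with slou at that level stands apart from P16 and P17, as its distances do.

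**Figure D3:**
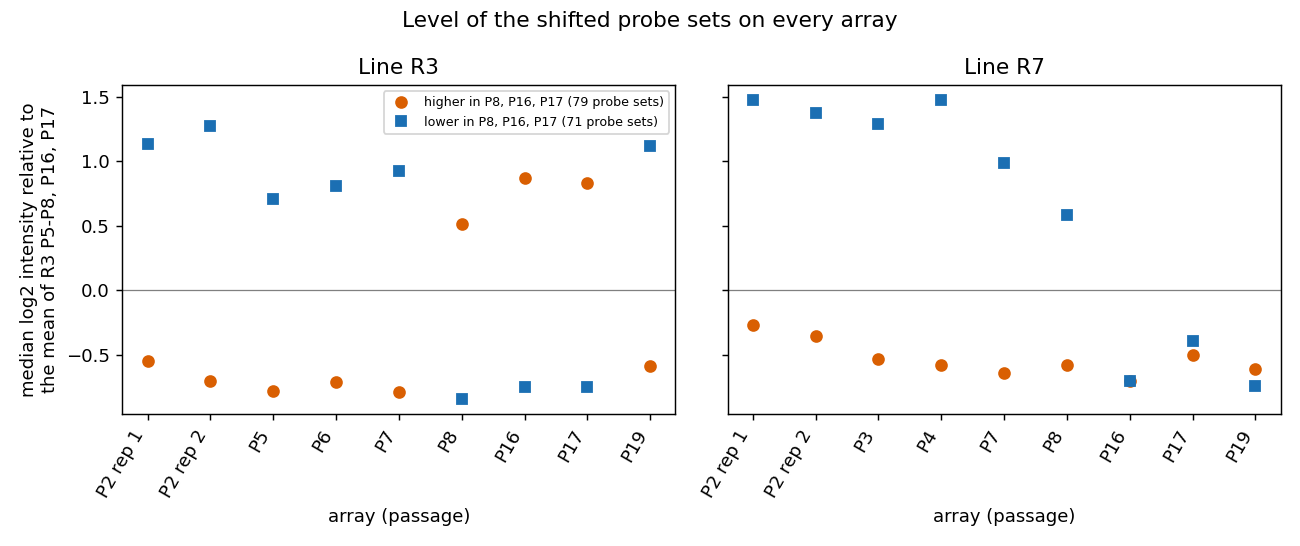
Median log2 intensity of the 79 higher (circles) and 71 lower (squares) shifted probe sets on each array, relative to the mean of the 6 R3 arrays, with passages of R3 on the left and of R7 on the right. In R7 the squares are at 0.98 on P7 and 0.58 on P8 and between -0.75 and -0.40 on P16, P17 and P19, while the circles stay below 0 on all 9 arrays.

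Many genes that were lower in R3 also fell in R7, between its intermediate and late passages. All 71 lower probe sets were tested in R7 with limma. Between late and intermediate passages 30 of them fell (42.3%, against 3.67% of all 9779 tested) and 1 rose (1.41%, against 2.83%). Their median difference was -1.38 (log2), and that of all tested probe sets was 0.00. In 50 of the 71 (70.4%, against 19.9% of all) the 3 late arrays were all below both intermediate arrays, and in 5 (7.04%, against 17.4%) all above. Against the early passages 54 fell (76.1%, against 11.8% of all) and 4 rose (5.63%, against 10.7%), with a median of -2.04 against -0.04. The 2 contrasts share the late arrays, so they are not independent of each other.

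The genes that were higher in R3 were called in both directions in R7, each more often than all probe sets. Of the 77 tested, 13 rose between late and intermediate passages (16.9%, against 2.83% of all) and 6 fell (7.79%, against 3.67%), with a median of 0.15. The late arrays were all above the intermediate ones in 26 (33.8%) and all below in 21 (27.3%). Against early passages 16 rose (20.8%, against 10.7%) and 22 fell (28.6%, against 11.8%), with a median of -0.03. In all, 43 shifted probe sets were called the same way in R7 late minus intermediate as in R3 and 7 the opposite way.

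The R7 counts rest on few arrays, and above all on R7 P7. Of all 9779 probe sets, 277 rose and 359 fell between late and intermediate, but without R7 P7 only 51 rose and 134 fell, and the shifted probe sets called the same way numbered 19. Fitted on the late and intermediate arrays alone, 74 rose and 149 fell, and 14 of the 24 named genes called in R7 lost their call, among them CG31676, salm, Lim1, daw, pyd3, CG14795, frm, Cpr12A and cona. The others were Timp, mod(mdg4), CG13403, Rph and twi, and the adjusted p of the 14 lay between 0.0581 and 0.18. Without R7 P8, P16 or P19 there were 142 to 152 rises and 210 to 238 falls. Between late and early, 1043 rose and 1156 fell, and without R7 P2 replicate 2 these were 522 and 655. Without R7 P19 they were 608 and 675, and the falls were 743 without R7 P2 replicate 1 and 735 without R7 P16. The share of rises among the late minus early calls was 47.4% on the deposited scale and 65.0% with quantile-normalized values. Equal array medians raised it to 77.0% and moved the median of all probe sets to 0.17 (log2).

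**Figure D4:**
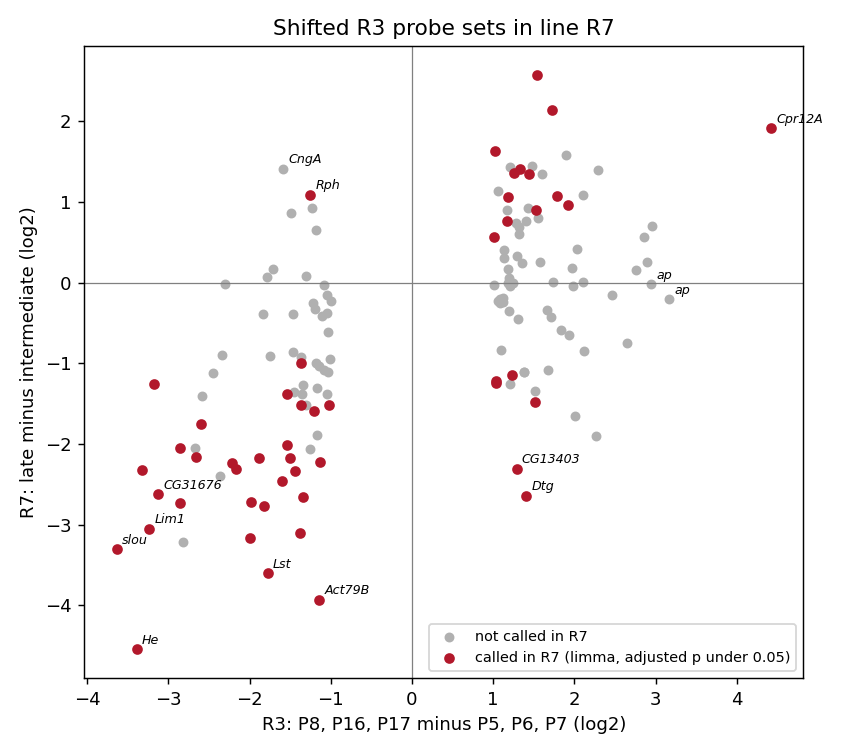
Difference of the shifted probe sets in R3 (P8, P16, P17 minus P5, P6, P7, horizontal, log2) against R7 (late minus intermediate, vertical, log2), with probe sets called in R7 in red. Most points left of 0 lie below 0, among them slou, He, Lim1, Lst and Act79B, and the points right of 0 lie on both sides.

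Between P7 and P8 the lines had these counts. R7 P8 was at least 2-fold lower than R7 P7 at 8 of the 71 lower probe sets and at least 2-fold higher at 2. In R3 the lower ones were 59, a count that the choice of the probe sets favours. Of all 10200 probe sets, 89 (0.873%) were at least 2-fold apart in either direction between R7 P7 and P8. Between R3 P7 and P8 these were 311 (3.05%). At the 79 higher probe sets, R7 P8 was at least 2-fold higher at 3 and lower at 5. This difference between the lines was not tested, since each has 1 array per passage there.

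In R7, slou, He and salm fell by wide margins. Late arrays that all lie under the floor have no spread after it. This enters the SE and p of slou and salm here and of CG31676, Lst, NLaz and CG1208 below. slou had 2.86, 3.92 and 5.38 in R7 late arrays, all far under the floor, against 444 and 226 in intermediate ones, at least 9.90-fold lower (log2 -3.31 ± 0.31 SE, limma adjusted p = 0.00208). He had 97.2, 74.0 and 61.6 in R7 late arrays and 2336 and 1361 in intermediate ones, 23.4-fold lower (log2 -4.55 ± 0.47 SE, adjusted p = 0.00267). salm lay under the floor in R7 late (mean 9.31 ± 1.87, n = 3) and at 415 and 182 in intermediate arrays, at least 8.60-fold lower (adjusted p = 0.00296, and 0.0598 with the late and intermediate arrays alone). Lim1 had 87.6, 78.7 and 209 in R7 late and 1194 and 729 in intermediate arrays (log2 -3.05 ± 0.42 SE, adjusted p = 0.00786), and its adjusted p was 0.104 without R7 P7 and 0.0974 with the late and intermediate arrays alone.

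CG31676, LpR1, Esp, crb, Sulf1, NLaz and Act79B fell too. With slou, He and Dtg, the last 6 are the named genes called in all 18 alternatives. CG31676 was under the floor in R7 late (17.1, 23.8 and 27.9) and had 280 and 138 in intermediate arrays, at least 6.15-fold lower (adjusted p = 0.00215, and 0.0611 with the late and intermediate arrays alone). Its mean in R7 early was 4784 ± 237 (n = 3). Act79B had 201, 264 and 263 in R7 late and 4618 and 2928 in intermediate arrays, 15.3-fold lower (adjusted p = 0.00212). LpR1 averaged 58.5 ± 7.15 in R7 late and 262 ± 37.8 in intermediate arrays (adjusted p = 0.00434). crb averaged 37.3 ± 13.5 in R7 late and 218 ± 12.9 in intermediate (adjusted p = 0.000618).

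Lst, daw, pyd3, CG14795 and frm fell as well, with calls that were lost in some alternatives. Lst lay under the floor in R7 late (mean 23.2 ± 3.25) and at 348 and 436 in intermediate arrays, at least 12.2-fold lower (adjusted p = 0.00789), with an adjusted p of 0.0834 without R7 P7 and 0.0692 without R7 P8. daw averaged 73.3 ± 26.0 in R7 late and 292 ± 19.1 in intermediate (adjusted p = 0.00790), with 0.104 without R7 P7, 0.0569 without R7 P8 and 0.0544 with P4 counted as early. pyd3 fell 2.38-fold (adjusted p = 0.0140), a call lost without R7 P7, P16 or P19 (0.0508 to 0.144) and with P4 counted as early (0.102). CG14795 fell 6.63-fold (adjusted p = 0.0210), a call lost without R7 P7, P16, P17 or P19 and at a floor of 64 (0.0506 to 0.0702). frm fell 5.00-fold (adjusted p = 0.0377), and this call was lost without any one of R7 P2 replicate 1, P2 replicate 2, P3, P7, P8, P16 or P19, and with P4 counted as early (0.065 to 0.216).

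Several lower genes did not pass in R7 between late and intermediate. The arrays of Gbs-70E, CG1208, atilla and nebu did not overlap and ran the same way as in R3. Those of Act87E, Pepck1, TwdlE, bero, Slc45-1 and Idgf3 overlapped. Gbs-70E had 225, 385 and 433 in R7 late and 1622 and 1177 in intermediate arrays (adjusted p = 0.0695). CG1208 was under the floor in R7 late and had 448 and 198 in intermediate arrays (adjusted p = 0.0534). atilla had an adjusted p of 0.0847 and nebu of 0.0875, with non-overlapping arrays in both. The differences of Act87E (-1.12 log2, adjusted p = 0.214), Pepck1 (-0.91, 0.232), TwdlE (-1.10, 0.508), bero (0.08, 0.909), Slc45-1 (-0.03, 1.0) and Idgf3 (-0.16, 0.954) did not pass either.

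On the higher side, Cpr12A and cona rose in R7. Cpr12A had 96.5, 112 and 190 in R7 late and 35.4 and 12.2 in intermediate arrays, 3.78-fold higher (adjusted p = 0.0228), and its early mean was 195 ± 60.4. That call was lost without R7 P7 (0.165) or P8 (0.132), at a floor of 64 (0.142) and with P4 counted as intermediate (0.327). cona had 407, 618 and 545 in R7 late and 237 and 296 in intermediate arrays, 1.95-fold higher (adjusted p = 0.0336). Its call was lost with P4 counted as early or intermediate, and without R7 P2 replicate 1, P2 replicate 2, P7, P8, P17 or P19 (0.0631 to 0.257).

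ap, the strongest homeobox gene on the higher side of R3, did not pass in R7. It had 107, 190 and 272 in R7 late and 262 and 159 in intermediate arrays (log2 -0.21 ± 0.38 SE, adjusted p = 0.868), and 326 to 384 in early ones. Swim had 121, 268 and 124 in R7 late and 130 and 135 in intermediate arrays (adjusted p = 0.784), and its early mean was 1007 ± 186. Pgant2 (0.15 log2, adjusted p = 0.787), eya (0.42, 0.441), CG34323 (0.18, 0.484), rols (-0.35, 0.588) and Glt (0.91, 0.663) did not pass, and neither did CG5002 (1.40, 0.166) and Ctns (1.09, 0.252). CG34232, CG6836, Ance-4 and nahoda had differences between -0.25 and 0.01.

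Some genes ran against their direction in R3. Dtg had 56.2, 76.8 and 88.5 in R7 late and 440 and 466 in intermediate arrays, 6.24-fold lower (adjusted p = 0.000534), and CG13403 was 4.94-fold lower (adjusted p = 0.0105, and 0.105 with the late and intermediate arrays alone). Timp fell 2.32-fold in R7 (adjusted p = 0.0226), a call lost without R7 P2 replicate 1, P7, P8, P16 or P19 (0.0504 to 0.165). mod(mdg4) fell 2.21-fold at the same probe set (adjusted p = 0.02998), lost without R7 P2 replicate 1, P7, P8, P17 or P19 and with P4 counted as intermediate (0.0597 to 0.162). Rph, lower in R3, rose 2.13-fold in R7, from arrays of 146, 172 and 156 in late and 66.2 and 82.9 in intermediate passages (adjusted p = 0.0125, and 0.13 without R7 P7).

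Among muscle precursor markers, twi rose in R7 in late against intermediate passages. It averaged 1954 ± 295 in R7 late and 810 ± 113 in intermediate arrays, 2.40-fold higher (adjusted p = 0.0140), with the call lost without R7 P7 (0.152), P8 (0.0592), P16 (0.0543) or P19 (0.0536). htl (0.69 log2, adjusted p = 0.0601), zfh1 (0.14, 0.456), Him (0.38, 0.558), ct (-0.31, 0.508) and vg (0.15, 0.760) did not pass.

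By gene list, R7 late minus intermediate called 225 of 7688 genes higher (2.93%) and 274 lower (3.56%), and late minus early 850 higher (11.1%) and 955 lower (12.4%). Of 24 haemocyte markers, 1 rose and 1, He, fell against intermediate, and 1 rose and 11 fell against early. Of 17 BMP and TGF-beta pathway genes, 4 fell against intermediate and 8 against early, with 0 rising in either. Falls were not particular to that list. Of 11 Hedgehog pathway genes 4 fell and 0 rose against intermediate, and 2 fell and 1 rose against early. Of 6 trachea markers 3 fell and 1 rose against intermediate, and 1 fell and 1 rose against early. Of 13 Notch pathway genes 1 fell and 0 rose against intermediate, and 6 fell and 2 rose against early. In the sarcomere list 2 of 13 fell and 0 rose against intermediate, and 5 fell and 1 rose against early. The lipid carrier and storage list had 2 of 19 lower and 0 higher against intermediate, and 4 lower and 3 higher against early.

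Position in the genome grouped few of the shifted genes. All 133 shifted genes were found in the RefSeq gene table of the Release 6 plus ISO1 MT assembly, and 3 pairs were direct neighbours. Each pair moved in the same direction: CG34323 with moon and CG15756 with Cpr12A were higher, and CG4927 with Lst lower. The array's genome build is not given in the sources used here, so no coordinates are printed.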

How the data were processed

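Total RNA from R3 and R7 cultures was measured on Affymetrix 3' arrays, 18 in all. The authors deposited 1 intensity per probe set on a linear scale, already summarised and scaled; how is not given in the sources used here. Of 18952 probe sets 183 were controls. Symbols came from the platform annotation: 13647 probe sets had exactly 1, 402 several and 4720 none.

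Values under 32 were set to 32, and log2 was taken. In R3, probe sets above 32 on at least 2 of the 6 arrays were compared without a test and called at a 2-fold difference in means without overlap. In R7, limma 3.58.1 in R 4.3.3 (lmFit, eBayes) was run on 9 arrays in 4 groups with 5 residual degrees of freedom and Benjamini-Hochberg adjustment over 9779 probe sets, called at an adjusted p under 0.05. On simulated data for late minus intermediate, 87 of 100 probe sets changed 2-fold and 95 of 100 changed 4-fold were recovered, with 13 calls among unchanged ones. The changed probe sets were drawn from the brighter ones, and the noise was independent between arrays. These rates therefore do not give the recovery for dim probe sets or for successive passages of a culture. Precision is limited by the number of arrays.

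Genes were named with 1 probe set each (the brightest over the 6 R3 arrays). The rule took the 15 largest differences each way, up to 3 members per gene list, the 6 largest called in R7 in the same and in the opposite direction, the 3 latest at P8 each way, and 6 muscle precursor markers. The members, the 39 gene lists and the rule were chosen with earlier results of these data known. Alternatives were scaling, floor, filter, fold, the place of P4 and P19, the fit, and leaving out each array.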

Additional observations from a re-analysis of the deposited data

Results flagged for a closer look

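Of the 56 named genes, 10 moved one way in R3 (P8, P16 and P17 against P5, P6 and P7) and the other way in R7 (late against intermediate), with no overlap of arrays in either line. Over all 9779 probe sets tested in R7, 17.4% were higher and 19.9% lower in late arrays without overlap. Of the shifted probe sets tested, 26 higher and 50 lower ones ran the same way in R7 without overlap. The opposite way ran 21 higher and 5 lower ones. Timp, Dtg, CG13403, mod(mdg4) and Rph met the naming rule through an opposite call in R7, so the 10 depend in part on that choice. The difference between the lines was not tested. PKD, CG9691, Hml, yellow-b, Timp, Dtg, CG13403 and mod(mdg4) were higher in R3 and lower in R7, with R7 differences of -0.75, -1.90, -1.65, -0.65, -1.22, -2.64, -2.31 and -1.14 (log2) in that order of genes. Rph and CngA were lower in R3 and higher in R7, by 1.09 and 1.41. limma called Timp, Dtg, CG13403, mod(mdg4) and Rph in R7. CngA (adjusted p = 0.0592), Hml (0.0653), CG9691 (0.0923), PKD (0.204) and yellow-b (0.628) were not called, while PKD was called with the late and intermediate arrays alone. The PKD late arrays (6.46, 12.1 and 6.55) all lay under the floor, so its difference is a bound. After the floor these arrays had no spread, and the call with the late and intermediate arrays alone rests on that. CngA had 3412, 3218 and 3592 in R7 late and 951 and 1716 in intermediate arrays. Hml had 24.6, 40.4 and 12.1 in R7 late and 93.3 and 127 in intermediate arrays.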

How the results depend on the processing

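In R3, leaving out each of the 6 arrays in turn gave 68 to 94 higher and 72 to 97 lower probe sets. The counts were 42 and 41 without the dimmest 30%, 16 and 19 at a 4-fold minimum, and 42 and 19 with P19 added to the later group. With P2 replicate 2 added to the earlier group, an alternative chosen after seeing the data, they were 78 and 84. In R7 late minus intermediate, leaving out an array gave 51 to 222 rises and 134 to 400 falls, with 19 to 38 shifted probe sets called the same way as in R3 and 3 to 7 the opposite way. The counts were 74 and 149 with the compared arrays alone, 106 and 217 with a 2-fold minimum, and 494 and 560 with P4 counted as intermediate. In R7 late minus early, leaving out an array gave 522 to 1009 rises and 655 to 1699 falls. The counts were 193 and 505 with a 2-fold minimum, 1775 rises after quantile normalization, and 2287 and 682 with equal array medians. The causes were not tested. Of 24 named genes called in R7 late minus intermediate, 9 were called in all 18 alternatives, and 23 were at least 2-fold apart. No direction reversed for a called value. No paired analysis was possible because the labels number replicates only at P2 and the groups compared share no replicate numbers. Signal near the floor limits what can be seen: 9918 probe sets were not compared in R3.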

Other observations

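The genes in the following were singled out after their values were seen. They are transcription factor and neuropeptide precursor genes of the shifted set, with no list behind them. No alternative is given for the genes of this section. The homeobox gene so had 452, 567 and 469 in P8, P16 and P17, against 168, 236 and 224 in P5, P6 and P7, and in R7 it rose between late (334, 323 and 352) and intermediate arrays (126 and 135), with a limma adjusted p of 0.000714. The Pax6 gene toy had 98.9, 128 and 95.9 in P8 to P17 and lay under the floor in P5 to P7, at least 3.33-fold higher, while R7 intermediate arrays already had 66.1 and 95.4 (adjusted p = 1 for late minus intermediate). The forkhead gene croc had 223, 218 and 139 in P8 to P17 and 94.7, 110 and 76.7 in P5 to P7, and rose in R7 by 1.63 (log2, adjusted p = 0.00970). The homeobox gene btn, already bright, had 4568, 5758 and 4848 in P8 to P17 and 1936, 2280 and 2343 in P5 to P7, and its R7 difference of 1.43 did not pass against intermediate (adjusted p = 0.0729).

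The neuropeptide precursor genes Nplp1, Nplp2 and sNPF were on the lower side. Nplp1 averaged 39.1 ± 11.6 in P8 to P17 and 99.9 ± 29.8 in P5 to P7. Its R7 difference of -2.06 (log2) did not pass against intermediate (limma adjusted p = 0.0703). Nplp2 had 65.4, 74.1 and 63.1 in P8 to P17 and 436, 310 and 207 in P5 to P7, and fell in R7 by 2.31 on the log2 scale against intermediate (adjusted p = 0.0487). sNPF had 106, 121 and 75.6 in P8 to P17 and 247, 268 and 173 in P5 to P7, with an R7 difference of -0.32 (adjusted p = 0.785). The tendon regulator gene sr had 22.2, 39.3 and 37.3 in P8 to P17 and 103, 152 and 149 in P5 to P7. It fell in R7 to 13.1, 9.37 and 19.7 in late arrays, against 215 and 96.5 in intermediate ones (limma adjusted p = 0.00788). These late arrays all lay under the floor, so the fall is a bound. They have no spread after the floor, which enters the p.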
